A study of Mus musculus with 3 samples.

Results

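The collagen gene family of the mouse lacrimal gland was followed here across classes of nuclei and across 3 libraries of single-nucleus RNA sequencing, in which RNA molecules are counted by unique molecular identifiers (UMIs). Members were taken by name, as every gene symbol made of Col, a number, the letter a and a number. Of 32285 genes in the tables, 44 carried such a symbol, and the 40 with at least 30 UMIs over the 3 libraries were kept. No level in any class and no difference between libraries was used in that choice. Just inside the limit lay Col9a1 with 30 UMIs, Col11a1 and Col8a2 with 32 each and Col19a1 with 33. Just outside lay Col28a1 with 21 UMIs, Col22a1 with 11, Col6a4 with 6 and Col2a1 with 3.

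The lacrimal gland makes the watery part of the tear film. The control library came from glands of healthy mice. The scopolamine library came from mice with dry eye caused by scopolamine (SCOP), a blocker of muscarinic receptors, and by dry stress (DS). The tamsulosin library came from mice given the same SCOP and DS and also tamsulosin, a blocker of alpha-1 adrenergic receptors. Strain, sex, age, dose and the number of animals behind a library are not given in the sources used here, and the extraction text names a sort for red fluorescent nuclei without saying which cells carried the label. Each group is 1 library, so no test between groups was possible and no difference below has a replicate check.

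Collagens are matrix proteins of 3 chains wound into a helix. Fibrillar collagens (types I, III and V among them) form the fibres of stroma and are typical products of fibroblasts, while type IV forms the sheet-like network of basement membranes that underlies epithelia, myoepithelial cells and vessels. Other subfamilies link fibres (FACIT collagens), form beaded filaments (type VI), anchor basement membranes to stroma (type VII) or cross the plasma membrane. In a gland such as this one, acini and ducts are wrapped by contractile myoepithelial cells on a basement membrane, with fibroblasts and vessels between them.

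Promoter stretches are shown for members whose levels the results turn on. Col3a1 stands for the fibroblast pattern and Col25a1 for the duct pattern. The type IV genes lie as head-to-head pairs, of which Col4a4 with Col4a3 and Col4a6 with Col4a5 are shown. Each runs 5′ to 3′ toward the gene's start and keeps only bases outside annotated exons. Capitals mark matches of 3 motifs searched on both strands. They are TATAAA, the core of the TATA box, then CCAAT, the CCAAT box, and GGGCGG, the GC box, and a match on the other strand appears as the reverse complement.
Col3a1: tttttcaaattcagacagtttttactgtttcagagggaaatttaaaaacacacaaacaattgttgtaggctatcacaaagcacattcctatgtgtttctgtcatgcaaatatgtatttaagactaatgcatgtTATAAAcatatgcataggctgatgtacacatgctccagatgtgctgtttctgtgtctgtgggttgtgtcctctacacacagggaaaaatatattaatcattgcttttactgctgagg
Col25a1: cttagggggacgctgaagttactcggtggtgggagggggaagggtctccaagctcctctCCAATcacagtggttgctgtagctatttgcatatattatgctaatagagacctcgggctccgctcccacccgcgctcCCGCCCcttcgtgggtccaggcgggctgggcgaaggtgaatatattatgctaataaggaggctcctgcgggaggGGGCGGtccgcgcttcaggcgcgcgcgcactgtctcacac
Col4a4: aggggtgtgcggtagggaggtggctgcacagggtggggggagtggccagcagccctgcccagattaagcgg
Col4a6: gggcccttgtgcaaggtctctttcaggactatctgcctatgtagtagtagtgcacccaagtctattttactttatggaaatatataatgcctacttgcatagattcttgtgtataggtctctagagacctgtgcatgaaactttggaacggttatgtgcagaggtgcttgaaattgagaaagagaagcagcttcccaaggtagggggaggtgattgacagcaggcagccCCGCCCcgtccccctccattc
Col4a5: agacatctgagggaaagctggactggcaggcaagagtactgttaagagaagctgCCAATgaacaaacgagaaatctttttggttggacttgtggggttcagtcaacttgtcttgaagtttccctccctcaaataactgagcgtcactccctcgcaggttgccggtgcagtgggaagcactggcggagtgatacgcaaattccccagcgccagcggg

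These stretches are RefSeq windows of build GRCm38.p6, at chr1:45311288-45311537 (+) for Col3a1, chr3:130180595-130180844 (+) for Col25a1, chr1:82586850-82586920 (−) for Col4a4, chrX:141474077-141474326 (−) for Col4a6 and chrX:141475169-141475384 (+) for Col4a5. The 71 bases of Col4a4 are the whole stretch between Col4a4 and Col4a3, so they are also the bases just before Col4a3 on the other strand. None of the 3 motifs was in them. The Col3a1 stretch, with 35.2% G or C, held 1 TATAAA at 117 bases before the start. The Col25a1 stretch, with 60.4% G or C, held a CCAAT at 191 bases and GC boxes at 114 and 40 bases before the start. The Col4a5 stretch held a CCAAT at 196 bases and the Col4a6 stretch a GC box at 21 bases before the start. In the GENCODE annotation of GRCm38, Col25a1 spans chr3:130131501-130599877, so the RefSeq start used here lies inside that gene model. Col1a1 spans chr11:94936224-94953042, Col4a1 chr8:11198423-11312826, Col5a3 chr9:20770050-20815067 and Col7a1 chr9:108953586-108984875. Antisense or overlapping genes are annotated at Col4a1, Col4a2, Col5a1, Col12a1, Col14a1, Col15a1 and Col24a1, which leaves some uncertainty in their counts. Among 32851 windows of all genes, 13.6% held TATAAA, 37.4% CCAAT and 35.7% a GC box. A window was at hand for 33 of the 40 members, of which 5 held TATAAA, 12 CCAAT and 21 a GC box. Motif matches describe letters only. Levels of the paired type IV genes, given below, did not always move together although their start sites lie close: Col4a6 and Col4a5 are 1308 bases apart, and Col4a1 and Col4a2 overlap by 22 bases.

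The libraries held 33500727, 35237256 and 57969348 UMIs in 7253, 10024 and 12322 barcodes, in the order control, scopolamine and tamsulosin, which is kept throughout. After filters on UMIs, genes, mitochondrial reads and likely doublets, 6780, 9205 and 10864 nuclei were kept. Between 22 and 35 barcodes were shared by any 2 libraries. The lowest deposited barcode held 1492, 967 and 1534 UMIs, so the scopolamine library reaches shallower nuclei. Nuclei were clustered without the collagen genes and classes were called "like" a cell type from other marker genes. The fibroblast-like class held 151, 278 and 288 nuclei, the endothelial-like 41, 125 and 92, the myoepithelial-like 217, 350 and 262, the duct-like 423, 680 and 3428 and the acinar-like 5184, 6125 and 2891. A second clustering of the fibroblast-, endothelial- and myoepithelial-like nuclei had taken out 166, 234 and 100 nuclei called mixed. Clusters of low complexity, with 43, 498 and 2669 nuclei, were in none of these classes. They made up 0.634%, 5.41% and 24.6% of the kept nuclei. Lymphoid-like nuclei (T or NK and B or plasma, 163, 246 and 357) should lack matrix collagens, and their values served as the level of free RNA. Levels are UMIs per 1000000 UMIs of the class in a library (CPM), and brackets hold 95% intervals that cover counting error only. A 3′ library counts molecules without regard to gene length, but nuclear RNA also holds unspliced transcripts, so levels of different genes are not ranked against each other.

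One gap between libraries touches every comparison. The share of UMIs from 3 secretory genes (Mucl2, Scgb1b2 and Scgb2b2) was 3.06%, 13.1% and 20.2% in fibroblast-like nuclei, 5.13%, 18.1% and 22.3% in myoepithelial-like nuclei and 5.56%, 11.6% and 21.0% in endothelial-like nuclei. T or NK-like nuclei, which do not make these proteins, held 3.90%, 14.5% and 20.1%. Summed over the list of acinar markers, acinar-like nuclei held 58536, 201180 and 257230 CPM. T or NK-like nuclei held 64279, 217708 and 291067 CPM, so this sum did not set acinar-like nuclei apart. On the same list, fibroblast-like nuclei held 50006, 196543 and 290781 CPM and myoepithelial-like nuclei 86575, 272686 and 326669 CPM. Their own lists stood at 6313, 5206 and 5613 CPM over 15 fibroblast markers, 4239.6, 4438 and 3679 CPM over 13 myoepithelial markers and, in endothelial-like nuclei, 6695, 8989 and 8121 CPM over 14 endothelial markers. The median log2 ratio over all measured genes of a class was below 0 in each comparison, and ratios are therefore also given relative to it. The part of these secretory UMIs in the ratios was not tested beyond that and a denominator without the 50 most abundant genes.

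Of the 5 classes compared, fibroblast-like and myoepithelial-like nuclei had the highest summed collagen levels in each library. All 40 members together made up 3565 (3400.0 to 3736), 3637 (3511 to 3768) and 4309 (4174 to 4447) CPM in fibroblast-like nuclei and 3747 (3618 to 3879), 3439 (3332 to 3549) and 3178 (3066 to 3292) CPM in myoepithelial-like nuclei. Endothelial-like nuclei held 591, 916 and 677 CPM and duct-like nuclei 518, 643 and 452 CPM. In acinar-like nuclei the sum was 335, 264 and 177 CPM, but without Col7a1 it was 80.9, 111 and 57.3 CPM, and T or NK-like nuclei held 98.6, 152 and 136 CPM and B or plasma-like nuclei 65.9, 145 and 100.3 CPM counted the same way. The acinar-like value lay between those of the 2 lymphoid classes in control and below both in the other libraries. Nuclei like pericytes or vascular smooth muscle, too few to be 1 of the 5 classes (3, 21 and 5 nuclei), held 1496 (887 to 2365), 2663 (2289.9 to 3079) and 1315 (824 to 1990.2) CPM of collagen from 18, 182 and 22 UMIs. Among the 5 classes compared, the highest mean CPM over libraries fell in fibroblast-like nuclei for 18 members, in myoepithelial-like nuclei for 14, in duct-like nuclei for 5, in endothelial-like nuclei for 2 and in acinar-like nuclei for 1. Of the 18 fibroblast members, 17 had their highest value there in each library and 13 were above the lymphoid level in each, meaning that the whole interval lay above that of lymphoid-like nuclei. Of the 14 myoepithelial members, both counts were 12. Of the 5 duct members both counts were 1, Col25a1, since Col19a1, Col9a3, Col8a2 and Col10a1 stayed under 10 CPM in every class mean.

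Among the 5 classes, all 10 fibrillar members were highest in fibroblast-like nuclei. Col3a1, the single chain of type III fibres, was at 411 (356 to 471), 570.4 (521 to 623) and 762 (706 to 821) CPM there. Its class mean of 581 CPM stood against 7.77 CPM in all other nuclei, a log2 difference of 5.52. Lymphoid-like nuclei held 0, 11.4 and 12.2 CPM of it. Col5a2, a chain of the type V collagen that nucleates fibres, had a class mean of 599 CPM against 10.5 CPM in other nuclei, and Col1a2, the second chain of type I, 347 against 6.21 CPM. Col1a1, the main chain of type I, was at 50.8 (32.9 to 75.0), 63.1 (47.4 to 82.4) and 112 (91.5 to 136) CPM, from 25, 54 and 101 UMIs. Its highest value was in the tamsulosin library, whose interval did not overlap the other two. Col5a1, Col5a3, Col27a1 and Col24a1 had class means of 119, 156, 156 and 16.0 CPM, and Col11a1 and Col11a2 stayed at 5.55 and 2.12 CPM.

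The share of nuclei with a UMI gave the same order of libraries for Col3a1 and Col1a1. A Col3a1 UMI was present in 54.3%, 66.2% and 69.8% of fibroblast-like nuclei and in 0%, 2.44% and 2.80% of lymphoid-like nuclei. After thinning every nucleus to 1000 UMIs, the fibroblast-like shares were 27.2% (20.2 to 35.0), 40.9% (35.1 to 47.0) and 44.4% (38.6 to 50.4). The control library lay lowest and the other two overlapped. A Col1a1 UMI was present in 13.9%, 16.2% and 22.9% of fibroblast-like nuclei, and after thinning in 5.30%, 7.97% and 8.68%, with intervals that overlapped for all 3. Median UMIs were 2724, 2044 and 2770 per fibroblast-like nucleus and 2231, 1661.5 and 2572 per T or NK-like nucleus. Fewer expressing cells and less RNA per nucleus cannot be told apart in summed counts.

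Among the 5 classes compared, all 6 type IV chains were highest in myoepithelial-like nuclei, with fibroblast-like nuclei second for Col4a1 to Col4a4 and duct-like nuclei second for Col4a5 and Col4a6. Col4a6, whose chain pairs with that of Col4a5 in the type IV network of some epithelia and smooth muscle, was at 1190.2 (1118 to 1266), 965 (909 to 1025) and 879.6 (821 to 941) CPM. The mean of 1012 CPM stood against 18.2 CPM in other nuclei. Col4a5 was at 705 (650.1 to 764), 620.4 (575 to 668) and 663 (613 to 716) CPM, with overlapping intervals. Col4a1, one of the 2 chains found in nearly all basement membranes, was at 217 (187 to 251), 286 (256 to 319) and 249 (218 to 282) CPM in myoepithelial-like nuclei. It was at 152 (119.9 to 191), 193 (165 to 225) and 200.1 (172 to 232) CPM in fibroblast-like nuclei and at 46.3, 88.6 and 70.4 CPM in endothelial-like nuclei. Lymphoid-like nuclei held 2.04, 3.81 and 4.87 CPM of Col4a1. Its partner Col4a2, with a start that overlaps, was at 183, 196 and 163 CPM in myoepithelial-like nuclei. The few nuclei like pericytes or vascular smooth muscle held Col4a1 at 83.1 (2.10 to 463), 380.4 (248 to 557) and 179 (37.0 to 524) CPM from 1, 26 and 3 UMIs, with intervals that overlapped those of myoepithelial-like nuclei.

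The head-to-head pairs differed in how they were spread over classes. Col4a5 was well above the lymphoid level in duct-like nuclei, at 139.7 (125 to 155), 202 (184 to 222) and 190.3 (184 to 197) CPM, whereas Col4a6 was at 27.1, 63.5 and 14.4 CPM there. The Col4a5 shares of duct-like nuclei with a UMI were 36.2%, 37.6% and 44.1%, against 3.68%, 3.66% and 3.08% of lymphoid-like nuclei. Col4a3 and Col4a4, separated by the 71 bases printed above, were at 84.5, 117 and 80.8 CPM and at 71.6, 96.5 and 60.1 CPM in myoepithelial-like nuclei. In fibroblast-like nuclei Col4a4 stayed at 42.7, 42.1 and 41.1 CPM while Col4a3 was at 28.5, 109 and 82.3 CPM. The order of the libraries was thus alike for the pair in myoepithelial-like nuclei and unlike in fibroblast-like nuclei, where 14, 93 and 74 UMIs of Col4a3 and 21, 36 and 37 of Col4a4 were counted.

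Of the 5 type VI members, Col6a1, Col6a2, Col6a3 and Col6a5 were highest in fibroblast-like nuclei and Col6a6 in myoepithelial-like nuclei. The 3 chains of the classic type VI filament had fibroblast class means of 48.8 (Col6a1), 61.8 (Col6a2) and 201 CPM (Col6a3). Col6a3, which carries the long binding domains of the filament, was at 205 (167 to 249), 171 (144 to 201) and 227 (197 to 260.2) CPM, with overlapping intervals. Col6a6, a chain related to that of Col6a3, was at 148 (123 to 176), 214 (188 to 243) and 219.6 (191 to 251) CPM in myoepithelial-like nuclei, lowest in control. Lymphoid-like nuclei held 2.04, 0 and 2.44 CPM of it. In fibroblast-like nuclei Col6a6 was at 93.5, 97.0 and 76.7 CPM.

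Among the 8 FACIT members kept, Col14a1 was shared by both matrix classes. This fibre-associated collagen was at 260.2 (217 to 309), 226 (195 to 259.8) and 241 (210.3 to 276) CPM in fibroblast-like nuclei and at 289 (254 to 327), 230.1 (203 to 259.8) and 211 (183 to 242) CPM in myoepithelial-like nuclei, and the intervals of the 2 classes overlapped in each library. Col12a1, its relative, was at 81.3, 46.8 and 58.9 CPM in fibroblast-like and 27.0, 39.8 and 33.2 CPM in myoepithelial-like nuclei. Col16a1 was at 22.6 and 27.3 CPM in the same 2 class means. Col9a1, Col9a2, Col9a3, Col19a1 and Col20a1 had their highest class means at 5.11, 6.96, 6.85, 0.44 and 16.8 CPM, and for each of the 5 the interval in its highest class overlapped that of lymphoid-like nuclei in every library. Levels of Col9a3 and Col20a1 are uncertain because each overlaps another annotated gene.

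The 4 transmembrane collagens fell in 3 classes. Col23a1 was at 209 (179 to 242), 212 (186 to 240.1) and 199.96 (173 to 230.2) CPM in myoepithelial-like nuclei, with overlapping intervals, against 6.59 CPM in other nuclei. Col17a1, the hemidesmosome collagen that ties basal epithelial cells to the basement membrane, was at 70.4, 97.3 and 77.7 CPM in the same class and at 4.44, 15.1 and 0.684 CPM in duct-like nuclei. Col13a1 was at 57.9, 27.8 and 54.8 CPM in endothelial-like nuclei, from 10, 11 and 14 UMIs. Col25a1 is known as the precursor of a plaque component of the brain and is needed for motor innervation of muscle. Among the classes compared, it was highest in duct-like nuclei in each library. Its values there were 153 (138 to 169), 195 (177 to 214) and 175 (169 to 182) CPM. Other nuclei held 5.26 CPM of it, a log2 difference of 4.13.

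Col25a1 UMIs came from a minority of duct-like nuclei. A Col25a1 UMI was present in 15.4%, 17.5% and 21.6% of them, and in 8.04%, 8.997% and 9.16% after thinning to 1000 UMIs, with overlapping intervals. Lymphoid-like nuclei held it in 0.613%, 0.407% and 1.68%. The 3 libraries filled different duct-like clusters, so duct-like nuclei were compared by cluster number. No duct marker was among the 10 leading genes of clusters 8, 9, 13 or 20. The leading genes of the main control cluster (cluster 13, 387 nuclei) held an acinar marker. Summed over 13 duct markers, duct-like nuclei held 1339, 1576 and 1731 CPM and acinar-like nuclei 850, 873 and 816 CPM. Cluster 8, with 345 scopolamine and 2456 tamsulosin nuclei, held Col25a1 at 308 (279 to 339.7) and 214 (206 to 223) CPM and Col4a5 at 254 (228 to 283) and 221 (213 to 229) CPM. Col25a1 was lower in the tamsulosin library there, with a ratio of 0.70 (0.63 to 0.77) and a log2 difference of −0.36 from the median of all genes. Cluster 13 held 156 CPM of Col25a1 and 129 CPM of Col4a5. Cluster 20, with 261 scopolamine and 950 tamsulosin nuclei, held 28.0 and 37.3 CPM of Col25a1 and 84.1 and 82.0 CPM of Col4a5.

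The small cluster 9 of duct-like nuclei (21, 74 and 22 nuclei) carried another set of collagens. It held Col4a6 at 144 (62.3 to 284), 436 (357 to 529) and 97.4 (39.1 to 201) CPM and Col17a1 at 126, 113 and 13.9 CPM. Col8a1, a short-chain collagen, was at 235, 122 and 83.5 CPM there, against 0 UMIs in the 345 scopolamine and 1 in the 2456 tamsulosin nuclei of cluster 8. Col23a1 was at 72.2, 122 and 0 CPM in cluster 9. These values rest on 0 to 104 UMIs each. Within cluster 8, 15 members were measured between the scopolamine and tamsulosin libraries, where measured means at least 20 UMIs over the 2 libraries. None was at least 2-fold higher with tamsulosin, against 5.54% of all measured genes, and 3 were at least 2-fold lower (Col6a3, Col23a1 and Col14a1), against 6.56%. Of these, Col23a1 went from 18.4 (11.8 to 27.4) to 6.95 (5.57 to 8.57) CPM.

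**Figure D1:**
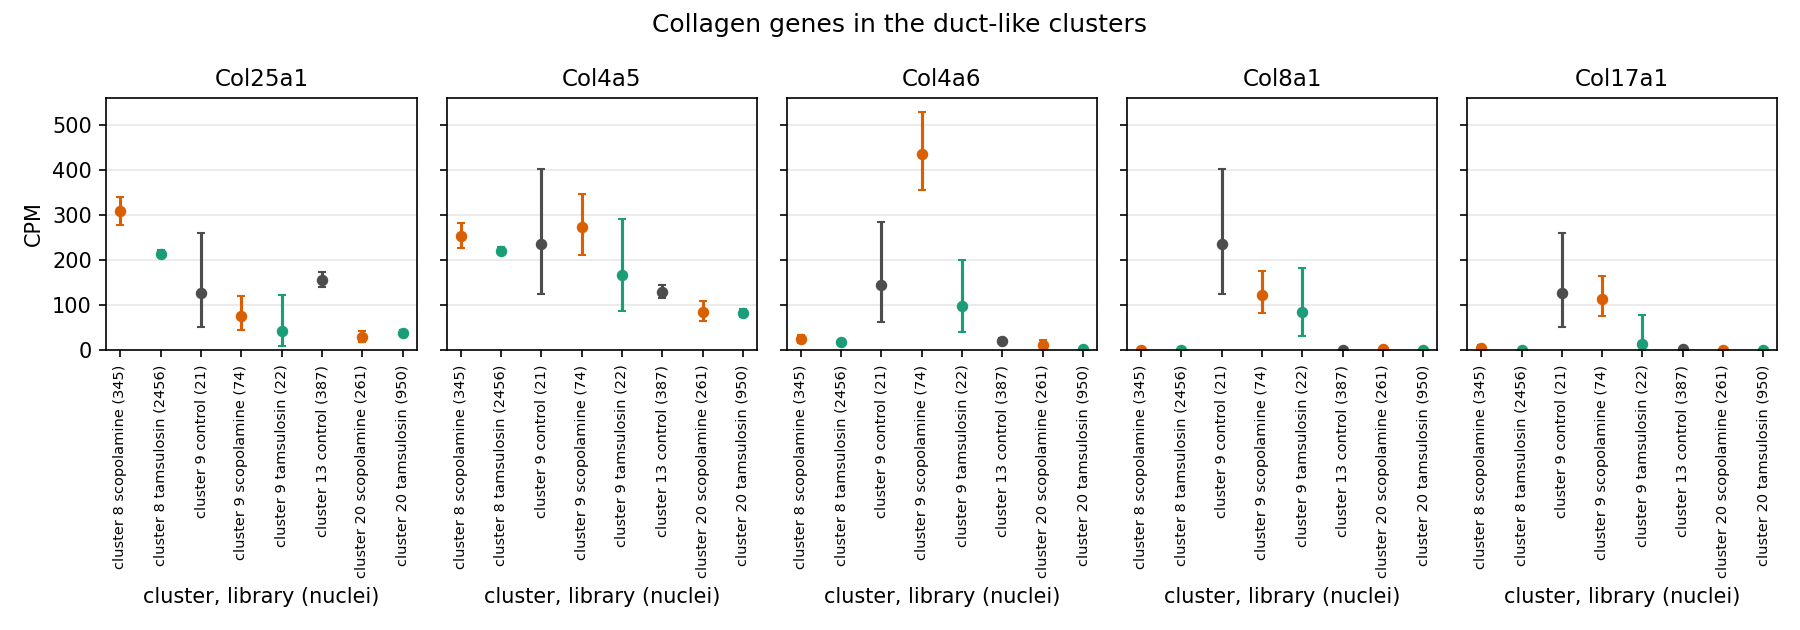
CPM of collagen genes (panels) in the clusters of duct-like nuclei by library (x axis; colours mark the library as named on the axis), with 95% Poisson intervals that cover counting error only. Col25a1 is highest in cluster 8 of the scopolamine library (308 CPM) and lowest in cluster 20, while Col4a6 and Col8a1 are highest in cluster 9.

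The multiplexins, whose C-terminal fragments include endostatin, were split. Col15a1 was highest in fibroblast-like nuclei, at 396 (343 to 456), 223 (193 to 257) and 299 (264 to 337) CPM, with no overlap between libraries. Col18a1 was highest in myoepithelial-like nuclei among the 5 classes, at 28.2, 44.2 and 38.3 CPM. The few nuclei like pericytes or vascular smooth muscle held more of it, 249 (51.4 to 729), 439 (296 to 627) and 418 (168 to 862) CPM, from 3, 30 and 7 UMIs. An overlap with Slc19a1 leaves Col18a1 counts uncertain. Col26a1 was at 48.8, 37.4 and 33.4 CPM in fibroblast-like nuclei, with overlapping intervals.

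Among the classes compared, Col8a1 was highest in endothelial-like nuclei, at 52.1 (23.8 to 98.9), 152 (116 to 195) and 125 (85.6 to 177) CPM. All other nuclei together held 1.35 CPM, but the small cluster 9 of duct-like nuclei, described above, also held the gene. It had no UMI in lymphoid-like nuclei of any library. In the endothelial-like class its UMIs came from few nuclei, 3 of 41, 20 of 125 and 10 of 92. A second clustering placed them in sub-cluster 8 (75 nuclei, with the arterial gene Sema3g), where Col8a1 stood at 359 (289 to 439.9) CPM and Col5a2 at 253 (196 to 323) CPM. Sub-cluster 3 (69 nuclei, with Slco1a4 and Kdr) held Col13a1 at 139.9 (93.7 to 201) CPM and Col4a1 and Col4a2 at 183 CPM each. Sub-cluster 11 (114 nuclei, with the venous gene Selp and the most Vwf of the 3) held Col15a1 at 111 (79.4 to 151) CPM. Col8a1 was thus highest in sub-cluster 8, Col13a1 in sub-cluster 3 and Col15a1 in sub-cluster 11. Since 17, 13 and 11 control nuclei fell in sub-clusters 3, 8 and 11 against 29, 41 and 55 scopolamine nuclei and 23, 21 and 48 tamsulosin nuclei, the make-up of the class differed between libraries.

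In fibroblast-like nuclei Col5a3 and Col4a3 were lowest in the control library. Col5a3, the third chain of type V, was at 58.9 (39.5 to 84.6), 199.9 (171 to 232) and 210.2 (181 to 242) CPM, from 29, 171 and 189 UMIs. It was low in control and alike in the other 2 libraries. Col4a3 was at 28.5 (15.6 to 47.7), 109 (87.7 to 133) and 82.3 (64.6 to 103) CPM, from 14, 93 and 74 UMIs, again lowest in control without overlap. The scopolamine-to-control ratio was 3.39 (2.28 to 5.22) for Col5a3 and 3.82 (2.17 to 7.26) for Col4a3, and the tamsulosin-to-control ratio 3.57 (2.40 to 5.47) and 2.89 (1.62 to 5.55). Over all processing alternatives tried, these 4 ratios ranged from 2.75 to 5.86, from 3.40 to 5.83, from 3.50 to 5.08 and from 2.80 to 4.35.

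In the scopolamine library against control, 28 members were measured in fibroblast-like nuclei. Col4a3, Col5a3 and Col18a1, the last with a ratio of 2.11 (0.83 to 6.36), were at least 2-fold higher, 3 members, where 4.49% of all measured genes were. Col24a1 and Col4a6 were at least 2-fold lower, where 8.25% of all genes were. The minor fibrillar gene Col24a1 was at 36.6, 7.01 and 4.45 CPM from 18, 6 and 4 UMIs, a scopolamine-to-control ratio of 0.19 (0.06 to 0.50). The Col4a6 ratio of 0.44 (0.20 to 0.96) was reversed when classes came from the first clustering. The median log2 ratio was −0.21 over the members and −0.28 over all measured genes. Col3a1 and Col5a2 had ratios of 1.39 (1.18 to 1.65) and 1.38 (1.17 to 1.62), or 0.76 and 0.74 above the median on the log2 scale. Col15a1 was lower, with 0.56 (0.46 to 0.69).

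In the tamsulosin library against the scopolamine library, 27 members were measured in fibroblast-like nuclei and none was at least 2-fold higher, where 4.4% of all genes were. Col7a1 alone was at least 2-fold lower with a ratio of 0.33 (0.21 to 0.51), where 8.11% were. The main fibrillar genes were moderately higher: Col1a1 with a ratio of 1.78 (1.27 to 2.52), Col3a1 of 1.34 (1.19 to 1.503), Col5a2 of 1.23 (1.10 to 1.39) and Col1a2 of 1.29 (1.09 to 1.52). Col15a1 and Col27a1 had ratios of 1.34 and 1.59. The median log2 ratio was 0.12 over the members and −0.22 over all measured genes.

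In the tamsulosin library against control, 4 of 28 members were at least 2-fold higher (Col5a3, Col4a3, Col18a1 and Col1a1), where 6.6% of all genes were, and 3 were at least 2-fold lower (Col24a1, Col7a1 and Col4a6), where 21.5% were. Col1a1 had a ratio of 2.21 (1.42 to 3.58), which ranged from 1.57 to 3.22 over the alternatives. Col3a1 had 1.86 (1.58 to 2.18), with a range of 1.67 to 2.63. The median log2 ratio was −0.02 over the members and −0.53 over all measured genes. Counted relative to that median, 8 members were at least 2-fold higher, where 12.3% of all genes were, and 2 lower, where 5.9% were. Each library enters 2 of the 3 comparisons, so these are not independent.

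**Figure D2:**
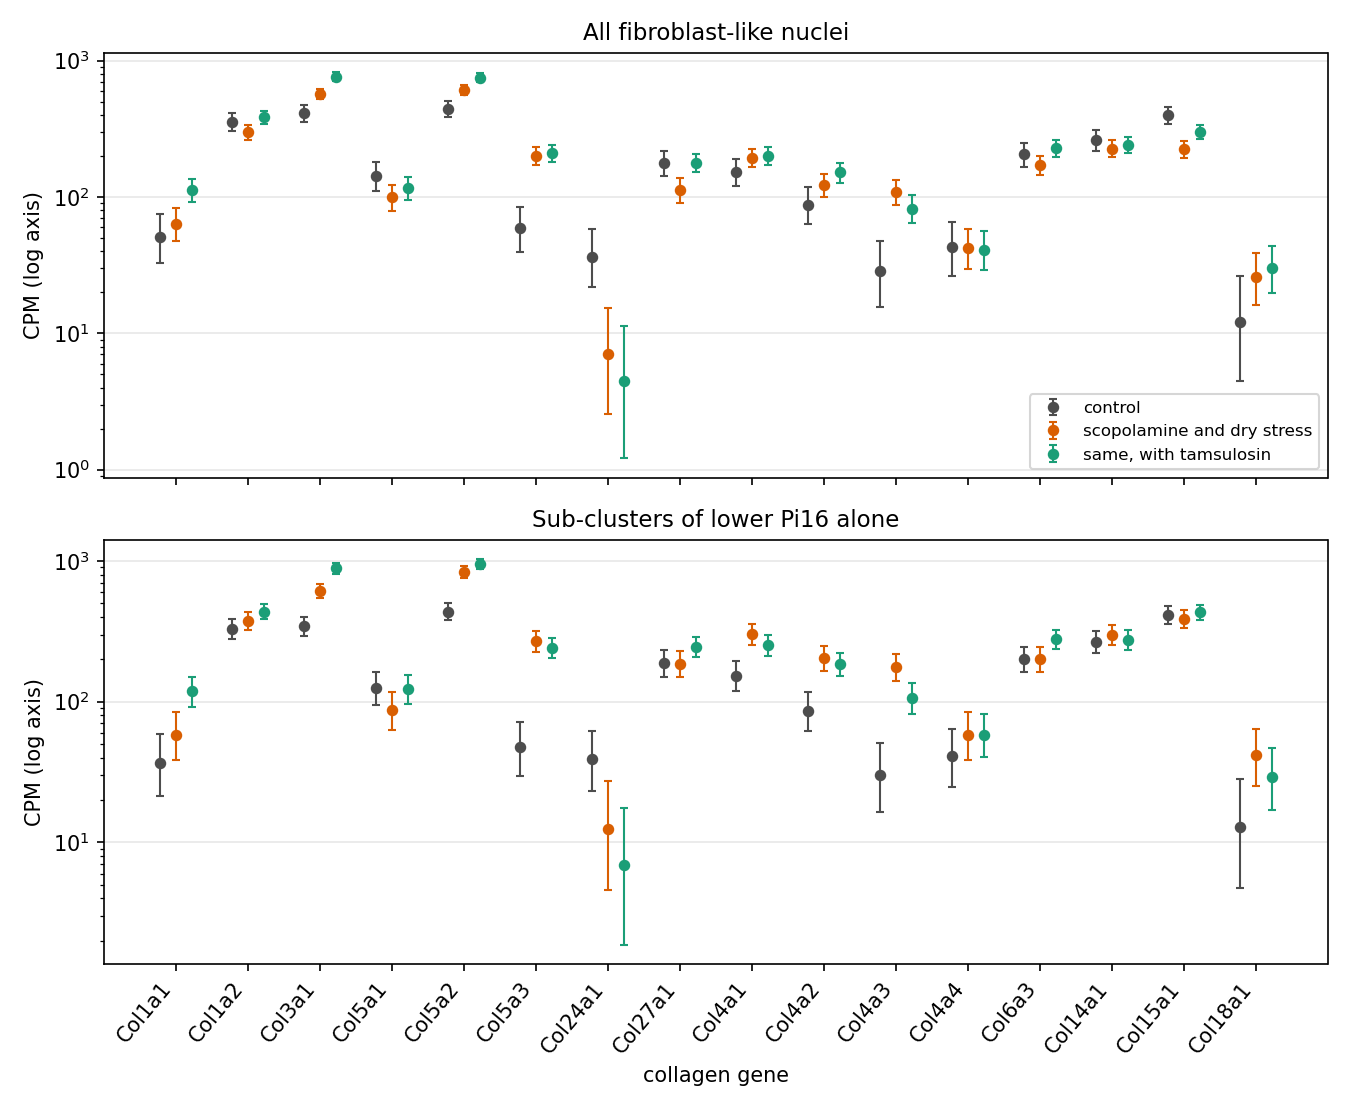
CPM in fibroblast-like nuclei (y axis, log scale) of the collagen genes measured there (x axis) by library (colours), with 95% Poisson intervals that cover counting error only. Col5a3 and Col4a3 are lowest in the control library, Col24a1 is highest there, and Col1a1 is highest in the tamsulosin library at 112 CPM.

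The fibroblast-like nuclei of the 3 libraries were not the same mixture. Sub-cluster 2 held 131 of the 151 control nuclei, 27 scopolamine nuclei and no tamsulosin nucleus, while sub-cluster 17 held 3, 107 and 110 nuclei and sub-cluster 1 held 5, 45 and 58. Sub-clusters with more Pi16, a marker of adventitial fibroblasts, held 11 control nuclei but 99 and 109 of the others. Dpp4 and Mfap5, also on the fibroblast list, did not follow this split. In the higher sub-clusters 7 and 13, Dpp4 was at 212 and 757 CPM and Mfap5 at 22.1 and 54.8 CPM. The lower sub-clusters held Dpp4 at 85.7 to 241 CPM and Mfap5 at 14.4 to 96.6 CPM. Nuclei of the sub-clusters with less Pi16 were 140, 179 and 179, or 92.7%, 64.4% and 62.2% of the class. That split was chosen after the data were seen.

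Among the nuclei with less Pi16, Col3a1, Col5a3 and Col4a3 were lowest in control as well. These nuclei included sub-cluster 2, with 131 control, 27 scopolamine and 0 tamsulosin nuclei, so the mixture still differed between libraries. Col3a1 was at 345 (294 to 403), 614 (546 to 688) and 889 (814 to 968) CPM, Col5a3 at 47.5, 269.7 and 241 CPM, and Col4a3 at 30.2, 176 and 106 CPM. For scopolamine against control, 5 of 27 members were at least 2-fold higher, where 4.07% of all genes were, and 1 was lower (Col24a1), where 9.31% were. The 5 were Col4a3 at 5.83 (3.29 to 11.1), Col5a3 at 5.68 (3.60 to 9.37), Col18a1, Col4a2 at 2.35 (1.61 to 3.49) and Col6a2. For tamsulosin against scopolamine, Col1a1 at 2.03 (1.29 to 3.28) was the 1 of 26 at least 2-fold higher, where 4.44% were, and Col7a1 the 1 lower, where 7.88% were. For tamsulosin against control, 8 of 27 were higher, where 6.79% were, and 3 were lower, where 21.7% were. Col1a1 was then at 36.7, 58.1 and 118 CPM. Col15a1, at 414 (358 to 477), 386 (332 to 445) and 431 (379.8 to 488) CPM, had overlapping intervals there.

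In sub-cluster 2, Col5a3 was at 46.3 (28.3 to 71.5) CPM in control and 171 (106 to 261) CPM in scopolamine nuclei, and Col3a1 at 306 (256 to 363) and 365 (267 to 489) CPM, which overlapped. In sub-cluster 1, Col3a1 was at 854 (696 to 1038) CPM in scopolamine and 1517 (1346 to 1704) CPM in tamsulosin nuclei, and Col1a1 at 33.8 (9.22 to 86.6) and 197 (139 to 271) CPM. In sub-cluster 17, Col3a1 was at 623 and 595 CPM and Col1a1 at 83.1 and 72.9 CPM, with overlapping intervals. The tamsulosin library was thus higher in Col3a1 and Col1a1 in sub-cluster 1 and did not differ beyond counting error in sub-cluster 17.

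In myoepithelial-like nuclei most collagen levels lay within 2-fold between libraries. For scopolamine against control, none of 18 members was at least 2-fold higher, where 3.19% of all genes were, and 1 was lower, where 10.8% were. That member was Col5a2, at 127 (104 to 153), 45.1 (33.6 to 59.3) and 49.7 (36.7 to 65.9) CPM, high in control and alike in the other two. Its scopolamine-to-control ratio was 0.36 (0.25 to 0.50). For tamsulosin against scopolamine, 1 of 19 members was higher, where 2.2% were, and none was lower, where 4.14% were. The higher one was Col3a1, from 8 to 16 UMIs, with a ratio of 2.34 (0.95 to 6.32). No member was higher in this comparison with doublets kept, with at least 1000 UMIs per nucleus, at a clustering resolution of 2.0, with collagen genes in the clustering, after thinning, with at least 50 UMIs per gene or with classes of the first clustering. For tamsulosin against control, none of 17 was higher, where 4.15% were, and Col5a2 and Col7a1 were lower, where 21.2% were. Col4a6 was lower by ratios of 0.81 (0.74 to 0.88) and 0.74 (0.67 to 0.81) against control, but lay 0.04 and 0.10 above the median of all genes on the log2 scale. Col6a6 had ratios of 1.45 (1.16 to 1.81) and 1.49 (1.19 to 1.87). The class was again split by library, with control nuclei mostly in sub-clusters 0 and 9, scopolamine nuclei in 18, 19, 20 and 23 and tamsulosin nuclei in 18 and 26. In sub-cluster 18, Col4a5 was at 310 (247 to 383) CPM in scopolamine and 500 (420 to 590) CPM in tamsulosin nuclei, without overlap. Col4a6 was at 597 (510 to 696) and 561 (476 to 656) CPM there, with overlap.

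Endothelial-like nuclei allowed 7 measured members. For scopolamine against control, 4 were at least 2-fold higher, where 8.12% of all genes were, and 1 was lower, where 8.29% were. The 4 were Col8a1, Col5a2, Col15a1 and Col4a2. Col5a2 was at 40.5 (16.3 to 83.5), 185 (145 to 232) and 54.8 (29.9 to 91.9) CPM, Col15a1 at 23.2 (6.31 to 59.3), 81.0 (55.4 to 114) and 74.3 (44.7 to 116) CPM and Col4a2 at 46.3, 96.1 and 113 CPM. The control and scopolamine intervals were apart for Col8a1 and Col5a2 and overlapped for Col15a1 and Col4a2. The lower one was Col13a1 at 0.48 (0.19 to 1.26), and no member was at least 2-fold lower in 8 of the other settings tried. For tamsulosin against scopolamine, none was higher, where 3.79% were, and Col5a2 at 0.30 (0.15 to 0.53) and Col7a1 were lower, where 14.7% were. For tamsulosin against control, Col15a1, Col4a2 and Col8a1 were higher, where 7.56% were, and Col7a1 was lower, where 27.4% were. Control counts of 4 to 9 UMIs stand behind the higher ones, and with classes of the first clustering the Col4a2 ratios to control were 0.78 and 0.66 and the tamsulosin-to-control ratio of Col8a1 was 0.94.

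Col7a1, the anchoring fibril collagen that holds epithelial basement membranes to stroma, was the member with the most UMIs, 16023 over all barcodes, and the one that acinar-like nuclei held most of. Its mean over libraries was 175 CPM in acinar-like nuclei and, not far below, 159 CPM in myoepithelial-like nuclei. It was at 254 (248 to 260.4), 152 (147 to 158) and 119.9 (115 to 125) CPM in acinar-like nuclei. Lymphoid-like nuclei held 173 (138 to 214), 101 (75.6 to 132) and 49.6 (37.9 to 63.7) CPM, and macrophage-like nuclei 164, 93.9 and 42.3 CPM. The order of the libraries was thus the same in classes that should not make the protein. Taken as a class, acinar-like nuclei stood above the lymphoid level in each library, but not every cluster did. Scopolamine cluster 12 (3708 nuclei) was at 105 (95.8 to 114) CPM and cluster 16 at 124 (102 to 150) CPM, which overlapped it. Cluster 21 (1797 scopolamine nuclei, median 4925 UMIs) was at 175 (168 to 183) CPM, without overlap. Control cluster 0 was at 196 (174 to 221) CPM, with overlap. Control clusters 2 and 3 were at 233 (224 to 243) and 277 (268 to 287) CPM, without overlap. A Col7a1 UMI was present in 43.5%, 26.0% and 39.5% of acinar-like and 27.6%, 8.94% and 10.9% of lymphoid-like nuclei. After thinning the acinar-like shares were 18.5%, 11.8% and 11.1% and the lymphoid-like shares 11.7%, 3.77% and 3.92%. The share of Col7a1 that is free RNA in any class was not tested, and its lower ratios in fibroblast-like, myoepithelial-like and endothelial-like nuclei stand beside these values.

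**Figure D3:**
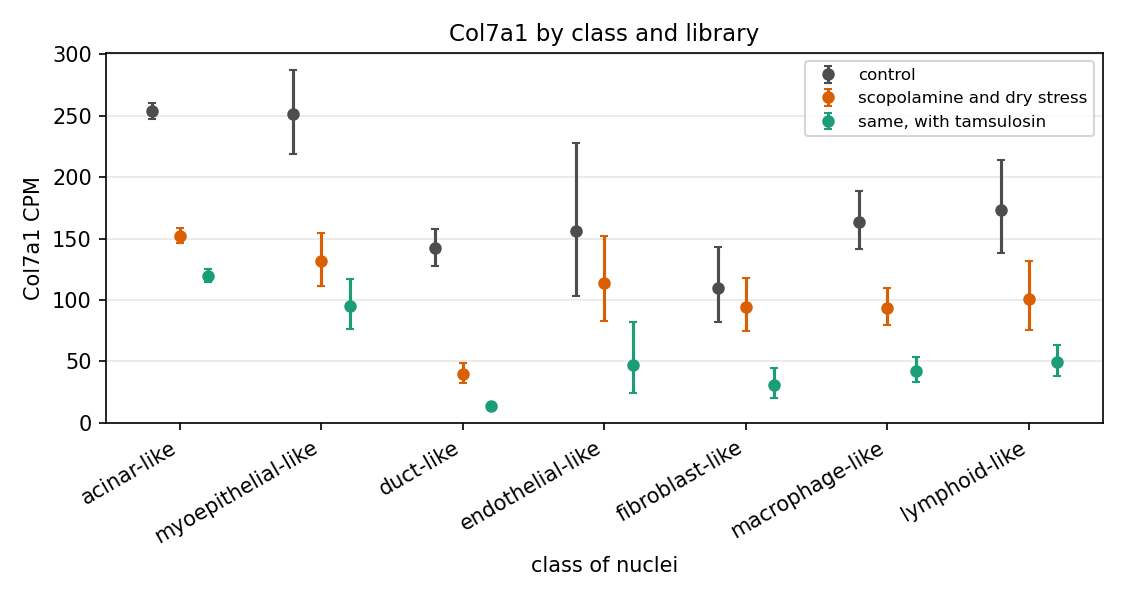
Col7a1 CPM (y axis) in classes of nuclei (x axis) by library (colours), with 95% Poisson intervals that cover counting error only. The control library is highest in every class shown, including lymphoid-like nuclei at 173 CPM, and the tamsulosin library is lowest.

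Other genes of collagen biosynthesis were taken from lists. In fibroblast-like nuclei, of 12 measured genes of collagen modification and folding (18 listed), 2 were at least 2-fold higher and 3 lower in tamsulosin against control. Of all measured genes 6.6% were higher and 21.5% lower in that comparison, and 4.49% higher and 8.25% lower in scopolamine against control, and the counts of each list below stand beside these shares. Serpinh1, the collagen chaperone HSP47, was at 12.2, 39.7 and 67.8 CPM from 6, 34 and 61 UMIs, with ratios of 3.26 (1.35 to 9.50) and 5.56 (2.41 to 15.7) to control. Ppib, a prolyl isomerase of the collagen-folding complex, had 2.23 (1.20 to 4.46), while Colgalt2, a collagen galactosyltransferase, had 0.36 (0.18 to 0.72). Of 8 measured genes of export and processing (9 listed), 2 were higher, Pcolce at 2.42 (1.27 to 4.97) and Tll1 at 2.15 (1.21 to 4.08), and Mia2 was lower. None of 4 measured cross-linking genes (6 listed) passed 2-fold.

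The lists of receptors, breakdown and TGF-beta genes were taken next. The inhibitor of matrix proteases Timp3 was at 352, 78.3 and 118 CPM in fibroblast-like nuclei, with ratios of 0.22 (0.17 to 0.30) and 0.34 (0.26 to 0.43) to control. It was the 1 of 5 measured breakdown genes (10 listed) past 2-fold in each comparison with control. Of 6 measured receptor genes (10 listed), Itga1 was lower with tamsulosin against control at 0.29 (0.18 to 0.46), and Mrc2, an uptake receptor for collagen, was lower with scopolamine against control at 0.46 (0.34 to 0.63) while Itga11 was higher at 2.03 (1.13 to 3.88). Of 7 measured TGF-beta genes (10 listed), 1 was lower in each comparison with control, Tgfb2 in the scopolamine library and Smad2 in the tamsulosin library, where 8.25% and 21.5% of all genes were, and none was higher. In myoepithelial-like nuclei Timp3 went the other way, at 18.8, 51.3 and 42.5 CPM, and P4ha1, the prolyl hydroxylase chain, was higher in both libraries with ratios of 2.14 (1.23 to 3.89) and 2.65 (1.53 to 4.80). Tgfb3 was lower there with tamsulosin against control at 0.21 (0.07 to 0.53).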

How the data were processed

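Nuclei of mouse lacrimal gland were sequenced with a droplet 3′ kit (V3), 1 library per group. The authors deposited 1 matrix of raw UMI counts per library, made with Cell Ranger 5.0.0 on build mm10 per the submitters' processing notes; other settings are not given in the sources used here. Kept nuclei had at least 500 UMIs, 300 genes and at most 5% mitochondrial UMIs. Scrublet's own threshold marked 0, 0 and 1 nuclei, so the nuclei of highest doublet score were removed by rank, 0.8% per 1000 nuclei. Nuclei were clustered (scanpy 1.11.5, 2000 variable genes without collagens, 30 components, Leiden resolution 1.0) and named from marker lists. Fibroblast-, endothelial- and myoepithelial-like nuclei were clustered a second time at a resolution of 2.0 and named again. UMIs were summed per class and library and expressed as CPM, with exact Poisson intervals for levels, Clopper-Pearson intervals for shares and conditional binomial intervals for ratios (scipy 1.17.1), all 95%. UMIs and nuclei of 1 library are not biological replicates. Ratios were counted at 2-fold with at least 20 UMIs over the 2 libraries. Samples were grouped by their labels.

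The members, gene lists and rules were chosen with earlier results of these data known. Values were planned in full for Col1a1, Col3a1, Col4a1 and Col25a1 and for the 4 members of highest class-to-other ratio per class. The same was planned for members past 2-fold, the 4 with most UMIs where more. For the classes compared, Col9a3, Col16a1 and Col20a1 were given as class means only. Not every member past 2-fold was named or given in full. Other genes named were chosen after their values were seen. Gene positions came from GENCODE annotation of GRCm38 and promoter windows from RefSeq. The interval and ratio steps were tested on simulated data. Alternatives changed the filters, clustering, doublets, denominator, depth and count limits.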

Additional observations from a re-analysis of the deposited data

Results flagged for a closer look

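Col5a2 and Col15a1 differed in direction between classes under the same comparison, with intervals of the ratios on opposite sides of 1. The differences between classes were not tested, since each group is 1 library. For scopolamine against control, the Col5a2 ratio was 1.38 (1.17 to 1.62) in fibroblast-like, 0.36 (0.25 to 0.50) in myoepithelial-like and 4.56 (2.10 to 11.7) in endothelial-like nuclei. For tamsulosin against scopolamine it was 1.23 (1.10 to 1.39) in fibroblast-like and 0.30 (0.15 to 0.53) in endothelial-like nuclei. For tamsulosin against control it was 1.70 (1.45 to 1.99) in fibroblast-like and 0.39 (0.27 to 0.56) in myoepithelial-like nuclei.

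The Col15a1 ratio for scopolamine against control was 0.56 (0.46 to 0.69) in fibroblast-like and 3.49 (1.24 to 13.6) in endothelial-like nuclei. For tamsulosin against control it was 0.75 (0.63 to 0.91) and 3.21 (1.07 to 12.97). Relative to the median of all genes, the fibroblast-like value of the last comparison was 0.12 on the log2 scale, so its direction turned. The endothelial-like values rest on 4 control UMIs. In fibroblast-like nuclei of sub-clusters with less Pi16, Col15a1 was at 414 (358 to 477), 386 (332 to 445) and 431 (379.8 to 488) CPM, with ratios to control of 0.93 (0.76 to 1.14) and 1.04 (0.86 to 1.26), so the opposite directions were not seen there beyond counting error.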

How the results depend on the processing

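No paired analysis was possible because each group is 1 library, and for the same reason no library could be left out. SC stands for scopolamine over control, TS for tamsulosin over scopolamine and TC for tamsulosin over control, and counts are of members at least 2-fold higher or lower. Of 33 ratios of named members, 33 stayed within the counting interval of the main value at a resolution of 2.0 and with at least 1000 UMIs, 31 with at least 1600 UMIs, 22 with classes of the first clustering, 28 with the reduced denominator and 30 after thinning. The cause of each change below was not tested. At a clustering resolution of 2.0, the collagen sum was 4182 CPM in fibroblast nuclei (scopolamine), 3585, 3272 and 2982 CPM in myoepithelial nuclei (control, scopolamine, tamsulosin). Counts were then fibroblast 1 lower for SC, endothelial 0 lower for SC, 1 lower for TS, myoepithelial 1 higher for SC, 0 higher for TS. With a limit of 1.5-fold, counts were fibroblast 5 lower for SC, 2 higher for TS, 2 lower for TS, 7 higher for TC, endothelial 1 higher for TS, myoepithelial 2 higher for SC, 3 lower for SC, 2 lower for TS, 1 higher for TC. With at least 1000 UMIs and 500 genes per nucleus, the collagen sum was 3460.4 and 4599.7 CPM in fibroblast nuclei (scopolamine, tamsulosin). Counts were then endothelial 0 lower for SC, myoepithelial 0 higher for TS. With at least 1600 UMIs per nucleus in every library, the collagen sum was 3213 and 4572 CPM in fibroblast nuclei (scopolamine, tamsulosin), 3439 and 3283 CPM in myoepithelial nuclei (control, scopolamine). Members counted were then endothelial 1 higher for TS, myoepithelial 1 lower for TS. The Col1a1 ratio in fibroblast-like nuclei for SC was then reversed, 0.970. With at least 50 UMIs per gene over the 2 libraries, counts were fibroblast 0 lower for SC, 1 lower for TC, endothelial 2 higher for SC, 0 lower for SC, 0 higher for TC, 0 lower for TC, myoepithelial 0 higher for TS. With classes of the first clustering alone, an alternative added after seeing the data, the collagen sum was 1918, 1859 and 2964 CPM in fibroblast nuclei (control, scopolamine, tamsulosin), 628 and 462 CPM in endothelial nuclei (scopolamine, tamsulosin), 2389.8, 2397 and 2667 CPM in myoepithelial nuclei (control, scopolamine, tamsulosin). Counts were then fibroblast 6 higher for SC, 8 higher for TS, 4 lower for TS, 9 higher for TC, endothelial 2 higher for SC, 1 lower for TS, 1 higher for TC, 2 lower for TC, myoepithelial 1 higher for SC, 2 lower for SC, 0 higher for TS, 1 lower for TS, 3 higher for TC, 1 lower for TC. 0 members were then highest in acinar-like nuclei. Reversed ratios were Col4a6 fibroblast SC 2.28, Col4a6 fibroblast TC 1.01, Col1a1 fibroblast SC 0.871, Col4a2 endothelial SC 0.782, Col4a2 endothelial TC 0.663 and Col8a1 endothelial TC 0.937. With collagen genes used in the clustering, the collagen sum was 4163 CPM in fibroblast nuclei (scopolamine), 3611 and 3197 CPM in myoepithelial nuclei (control, scopolamine). The counts became fibroblast 1 lower for SC, 0 lower for TS, endothelial 0 lower for SC, 1 lower for TS, myoepithelial 1 higher for SC, 0 higher for TS. With a CPM denominator without the 50 most abundant genes, the collagen sum was 4358, 5386 and 7404 CPM in fibroblast nuclei (control, scopolamine, tamsulosin), 776, 1316 and 1191 CPM in endothelial nuclei (control, scopolamine, tamsulosin), 4859.7, 5726 and 5903 CPM in myoepithelial nuclei (control, scopolamine, tamsulosin). Counts were then fibroblast 1 lower for SC, 1 higher for TS, 8 higher for TC, endothelial 0 lower for SC, 1 higher for TS, 1 lower for TS, myoepithelial 2 higher for SC, 2 higher for TC, 0 lower for TC. With doublets kept, the collagen sum was 4078 CPM in fibroblast nuclei (tamsulosin), 3241 and 3287 CPM in myoepithelial nuclei (control, scopolamine). Members counted were then fibroblast 1 lower for SC, endothelial 0 lower for SC, myoepithelial 2 lower for SC, 0 higher for TS, 1 lower for TS, 1 higher for TC. With every nucleus thinned to 1000 UMIs, the collagen sum was 4333 CPM in fibroblast nuclei (scopolamine), 3567 and 3556 CPM in myoepithelial nuclei (control, scopolamine). The counts became fibroblast 0 lower for SC, 3 lower for TS, 2 higher for TC, 1 lower for TC, endothelial 1 higher for SC, 0 lower for SC, 1 lower for TS, 0 higher for TC, 0 lower for TC, myoepithelial 0 higher for TS, 1 lower for TC. 3 members were then highest in duct-like nuclei. In fibroblast-like sub-clusters of lower Pi16, also added later, the collagen sum was 4833 and 5275 CPM in fibroblast nuclei (scopolamine, tamsulosin). The counts became fibroblast 5 higher for SC, 1 lower for SC, 1 higher for TS, 8 higher for TC. Without a minimum of UMIs, counts were fibroblast 7 lower for SC, 2 lower for TS, 7 lower for TC, endothelial 5 lower for SC, 4 higher for TS, 5 lower for TS, 5 higher for TC, 4 lower for TC, myoepithelial 3 higher for SC, 3 lower for SC, 3 higher for TS, 3 lower for TS, 1 higher for TC, 4 lower for TC. With ratios relative to the median of all genes, counts were fibroblast 1 lower for SC, 1 higher for TS, 8 higher for TC, endothelial 0 lower for SC, 1 higher for TS, 1 lower for TS, myoepithelial 1 higher for SC, 2 higher for TC, 0 lower for TC. The collagen sum of myoepithelial-like nuclei was lowest in the tamsulosin library in the main classes (3747, 3439 and 3178 CPM), and lowest in control without the 50 most abundant genes or with classes of the first clustering. Few endothelial-like nuclei (41, 125 and 92) limited that class to 7 measured members. Protein features of members were planned and not run.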

Other observations

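Some collagen UMIs lay outside the classes compared above. In T or NK-like nuclei, Col24a1 had 0 UMIs in the control and scopolamine libraries and 20 in the tamsulosin library, all of them in 5 nuclei. In macrophage-like nuclei, Col14a1 was at 28.1 (19.4 to 39.5), 27.9 (20.5 to 37.1) and 61.0 (49.7 to 74.1) CPM, highest in the tamsulosin library. Sub-cluster 10, a mixed group of 70 nuclei of which 50 were of the scopolamine library, held Col20a1 at 45.4 (24.8 to 76.2) CPM in that library, from 14 UMIs in 14.0% of the 50 nuclei. Col3a1 UMIs lay in 54.0% of them, and the 46 UMIs of Cdh19, a Schwann marker gene, in 8.0%.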
